A study of Mus musculus with 5 samples.

Results

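The regions described here are autosomal stretches of accessible chromatin that carried a peak in both libraries of SOX13hi γδ thymocytes and in neither library of SOX13lo γδ thymocytes. They were found by merging the peak lists of all 5 libraries wherever peaks overlapped by 1 bp or more. A region counted as present in a library when it held a peak of that library. Of 153269 autosomal merged regions (157434 on all chromosomes), 3755 had this pattern, which is 2.45% of the autosomal regions. Of these members, 1898 had no peak in double-positive (DP) thymocytes (1.24% of the autosomal regions) and 1857 had one (1.21%). The members were chosen by the presence and absence of peaks in the 4 γδ libraries, so their pattern across those libraries is a description and not a finding. A DP peak was neither required nor excluded, but DP peaks took part in the merging and so shaped which regions were members.

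Accessible chromatin was profiled by ATAC-seq, in which a transposase inserts adapters into open DNA. Each of the 5 groups had 1 library, and all animals were of the C57BL/6 strain. The SOX13hi and SOX13lo libraries came from CD24+ γδ thymocytes of animals with the genotype TCRbeta KO.Sox13 ECFP KI/+, sorted for high or for low to absent CFP, the fluorescent reporter placed at the Sox13 gene. The transgenic SOX13hi and transgenic SOX13lo libraries came from the same sort of animals that also carried a Sox13 transgene (TCRbeta KO.Sox13tg+.Sox13 ECFP KI/+). DP thymocytes came from wild-type animals. All 4 γδ groups thus lacked TCRbeta and carried the knock-in on 1 allele, and DP carried neither change. The labels give 40000 sorted cells per γδ library. The sources used here name neither the promoter of the transgene nor the number of animals pooled.

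γδ T cells carry an antigen receptor of γ and δ chains and arise in the thymus beside αβ T cells, whose precursors pass through the DP stage, where CD4 and CD8 are both on the surface. CD24 marks immature γδ thymocytes. SOX13 is a transcription factor with an HMG box, a domain that binds the minor groove of DNA and bends it. In immature γδ thymocytes it is known for its part in the lineage that later makes interleukin 17. Accessible sites outside promoters often are enhancers, through which transcription factors act on genes that may lie far away.

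Peak lists held 54435 peaks for SOX13hi, 63932 for transgenic SOX13hi, 67482 for SOX13lo, 33155 for transgenic SOX13lo and 113877 for DP. Read depth is unknown, so a missing peak means only that none was listed. The transgenic SOX13lo list stood apart as the shortest. In the SOX13lo list the peaks are named SOX13hi throughout, which goes against the sample's label, and the label was followed. The labels give 1 index sequence for both the transgenic SOX13hi and the DP library. With 1 library per group no difference has a replicate check, and no p-value is given. Intervals are exact Clopper-Pearson 95% intervals for shares and exact Poisson 95% intervals for window counts. They cover counting error only.

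Among regions present in exactly 2 of the 4 γδ libraries, the pair of SOX13hi libraries did not share the most regions, but it held the most strong ones. The 3755 members stood beside 3688 regions shared by SOX13hi and SOX13lo alone and 5049 shared by transgenic SOX13hi and SOX13lo alone. The pairs with the short transgenic SOX13lo list held fewer: 885 with SOX13lo, 907 with transgenic SOX13hi and 405 with SOX13hi. The 885 regions of both SOX13lo libraries and neither SOX13hi library, here called mirror regions, were 0.577% of the autosomal regions. With every list cut to its 33155 highest-scoring peaks, the members were the most numerous of the 6 pairs, with 2083 regions against 551 to 1788.

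Strength was read as the percentile of a peak's score within its own list, that is the share of that list's peaks with the same or a lower score. Because many peaks share the lowest score, the lowest possible percentile is 18.3 in the SOX13hi list and 19.0 in the transgenic SOX13hi list. At or above percentile 75 in both lists there were 173 members. The same cut-off left 27 regions shared by SOX13hi and SOX13lo alone, 20 shared by transgenic SOX13hi and SOX13lo alone, and 24, 11 and 6 in the pairs that include transgenic SOX13lo. The strong members thus were 4.61% of all members. The strong share was 0.732% and 0.396% in the pairs of SOX13lo with SOX13hi and with transgenic SOX13hi, and 0.678% of mirror regions. In the smaller pairs of transgenic SOX13lo with SOX13hi and with transgenic SOX13hi it was 2.72% and 2.65%. With lists of equal length the strong members numbered 302, against 13 to 107 in the other 5 pairs. In this and the other alternatives percentiles stayed those of the full lists, so the cut-off itself was not matched in length. Leaving out peaks of 30 bp or less narrowed the difference in number, with 496 strong members against 99 to 364 regions in the other pairs. In share the order turned for 1 pair: 19.3% of members were then strong, 28.3% of the regions of SOX13hi with transgenic SOX13lo, and 10.3% to 17.2% in the other 4 pairs.

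**Figure D1:**
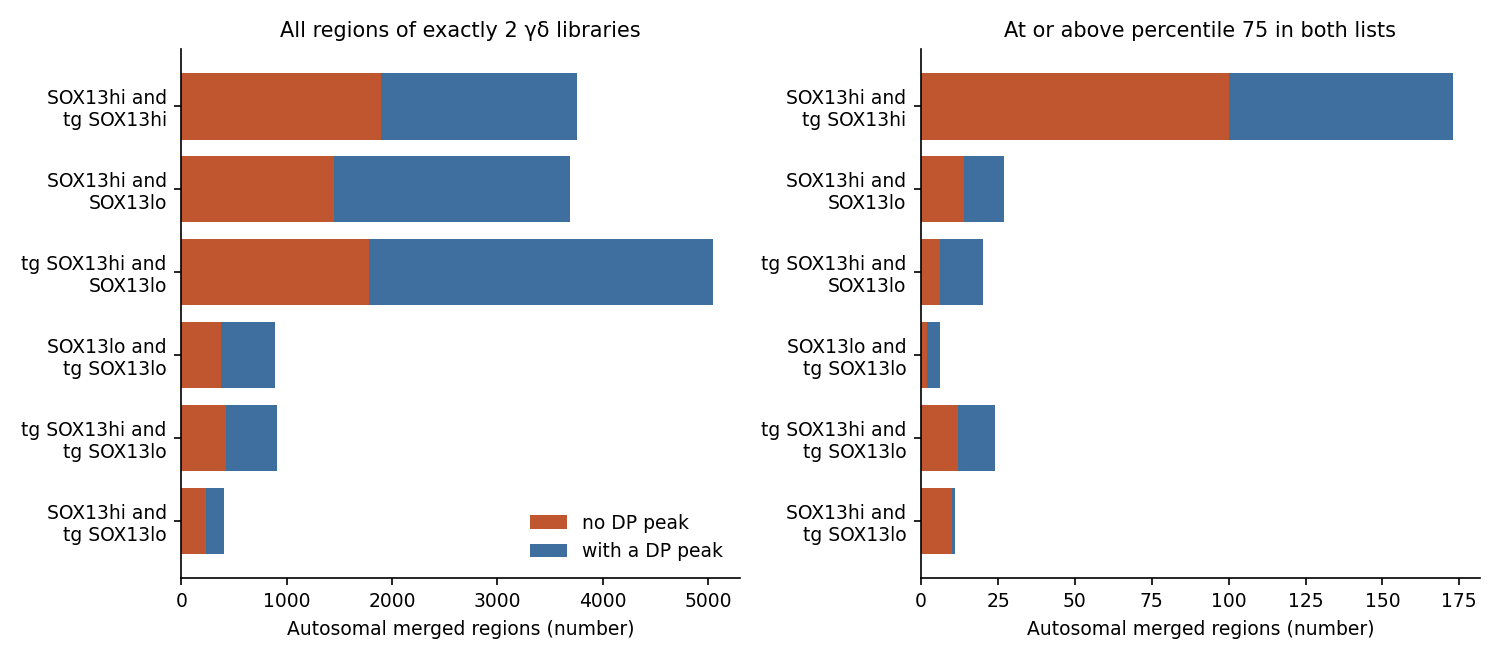
Number of autosomal regions present in exactly 2 of the 4 γδ libraries, for each pair of libraries (tg, with the Sox13 transgene), split by presence in DP. Left, all regions, where transgenic SOX13hi with SOX13lo has the longest bar (5049); right, regions at or above score percentile 75 in both lists, where the SOX13hi pair has 173 and no other pair more than 27.

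Most members were nevertheless weak. Their median score was 10 in SOX13hi (lowest 7, highest 108) and 11 in transgenic SOX13hi (lowest 7, highest 144). These are median percentiles of 41.2 and 47.9. For comparison, the 15575 regions of all 4 γδ libraries had median percentiles of 82.0 and 85.4, and regions found in 1 of these 2 libraries alone had 28.0 and 28.8. The members therefore lay between the regions that no other γδ library shared and those that all shared. Of the 28876 regions with peaks in both SOX13hi libraries, members made up 35.1% where the lower of the 2 percentiles was below 25, and 23.3% from 25 to below 50. They made up 9.59% from 50 to below 75, and 1.65% at 75 or above.

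At the edge of the rule, 1248 members had the lowest listed score in at least 1 SOX13hi list, and 173 had it in both. Just outside it lay 8805 regions that had a SOX13lo peak and no transgenic SOX13lo peak, 543 of them with the lowest score of the SOX13lo list. A further 741 regions missed only by a transgenic SOX13lo peak, 171 of them at the lowest score of that list. The requirement on SOX13lo removed more regions than that on transgenic SOX13lo: without the first the rule gave 12560 regions, and without the second 4496. The SOX13lo list is also the longer, with 67482 peaks against 33155. The part of list length in this was not tested. Of the regions in both SOX13hi libraries that SOX13lo lacked, 83.5% (95% interval 82.4 to 84.6) were also absent from transgenic SOX13lo. Of those that SOX13lo held, 36.1% (35.5 to 36.7) were absent from it.

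The percentile was higher in transgenic SOX13hi than in SOX13hi for 62.1% (60.5 to 63.7) of the members. This share includes ties in score: the lowest score, 7, is percentile 19.0 in transgenic SOX13hi and 18.3 in SOX13hi. The 173 members with that score in both lists thus count as higher. The share was not computed for other regions. Regions of all 4 γδ libraries also had the higher median percentile in transgenic SOX13hi, 85.4 against 82.0. Peaks were often at the shortest listed widths, in members as in the whole lists. Of all listed peaks, 45.5% in SOX13hi and 46.6% in transgenic SOX13hi were 30 bp or less. By their widest peak in each list, 985 members had peaks of 30 bp or less in both lists. A further 1000 had wider peaks in both, and 1770 had 1 of each. Of the 173 strong members, 120 (69.4%, 61.9 to 76.1) had wider peaks in both lists.

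**Figure D2:**
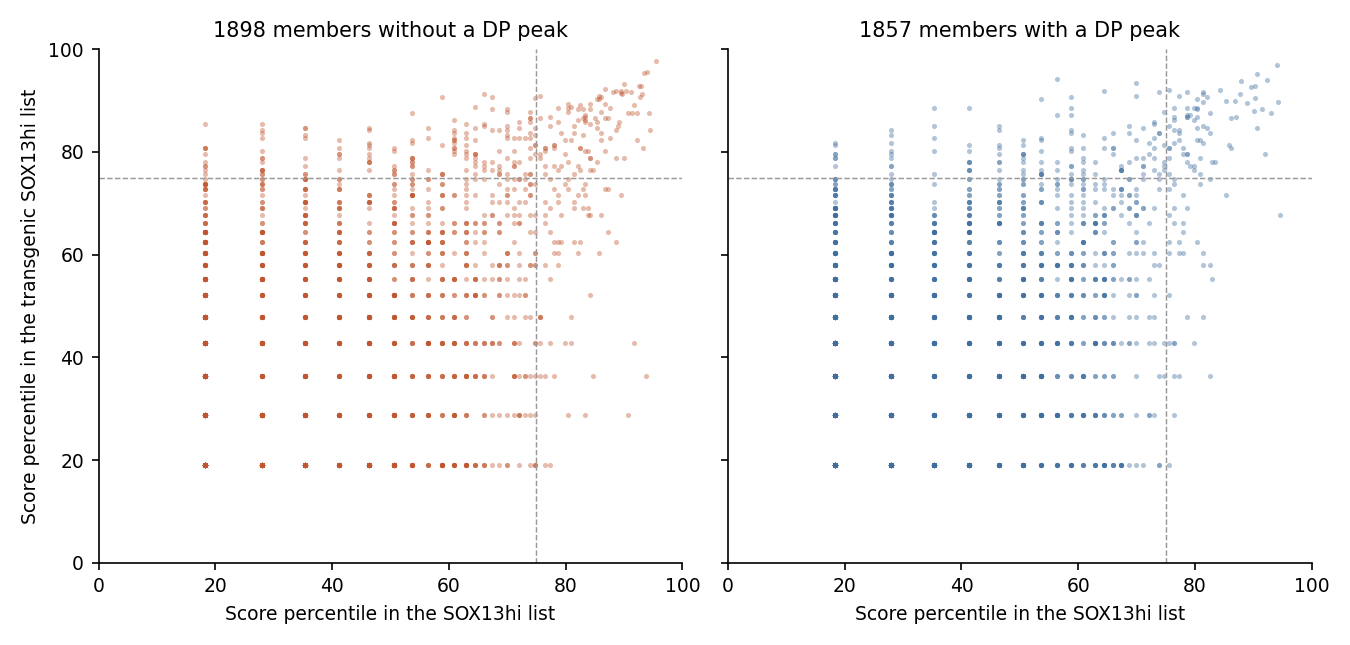
Score percentile of each member within the SOX13hi list (x axis) and the transgenic SOX13hi list (y axis), for the 1898 members without and the 1857 with a DP peak. Dashed lines mark percentile 75, and the 173 members to the upper right of both lines (100 without and 73 with DP) are the strong ones; the rows and columns of points are tied low scores.

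The share with a DP peak was lower among members than among mirror regions and among regions that SOX13lo shared with either SOX13hi library alone. The share with DP was 49.5% (47.8 to 51.1) of members, 57.1% (53.7 to 60.4) of mirror regions and 60.7% (59.1 to 62.2) of regions shared by SOX13hi and SOX13lo alone. It was 64.7% (63.4 to 66.1) for transgenic SOX13hi with SOX13lo and 53.4% (50.1 to 56.6) for transgenic SOX13hi with transgenic SOX13lo. SOX13hi with transgenic SOX13lo had the lowest share, at 42.2% (37.4 to 47.2). Over all 91357 autosomal regions of any γδ library the share was 49.6%, close to that of the members. That background includes the regions of a single γδ library, of which 21.1% to 29.8% were in DP, depending on the library. With lists of equal length the share was 36.1% (34.1 to 38.3) of members, 46.3% of mirror regions, 45.4% for SOX13hi with SOX13lo and 51.5% for transgenic SOX13hi with SOX13lo.

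The DP share also depended on the DP list taking part in the merge. In 253 members the SOX13hi and transgenic SOX13hi peaks did not touch each other and were joined only through a DP peak. Of the 3502 members whose 2 peaks overlapped directly, 45.8% (44.1 to 47.5) had a DP peak. A DP peak can likewise join a region to a SOX13lo peak and so remove it from the members. When the 4 γδ lists were merged without DP, 4155 regions had the pattern of the members, 2257 of them (54.3%) with a DP peak. The 1898 members without DP are the same under both ways of merging by construction, since no DP peak touches them.

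The DP share of members was not higher in the stronger bands. It was higher in each of the first 3 successive bands in the pairs of SOX13lo with either SOX13hi library, but not in the 3 pairs that include transgenic SOX13lo. For members it was 49.2% (46.4 to 52.0) with the lower percentile below 25, 51.5% (48.9 to 54.0) from 25 to below 50, 47.5% (44.0 to 51.1) from 50 to below 75, and 42.2% (34.7 to 49.9) at 75 or above. Neighbouring intervals overlapped. For regions of transgenic SOX13hi and SOX13lo alone the share went from 59.0% (56.7 to 61.3) through 65.8% (63.9 to 67.7) to 73.6% (70.5 to 76.6), and for SOX13hi with SOX13lo from 56.7% through 61.5% to 66.6% (62.9 to 70.2). From 50 to below 75, the interval for members lay below those of both these pairs. At 75 or above the other pairs held 20 and 27 regions, too few to place. Mirror regions stood at 56.0%, 58.5% and 56.0% over the first 3 bands, transgenic SOX13hi with transgenic SOX13lo at 50.4%, 56.8% and 52.9%, and SOX13hi with transgenic SOX13lo at 45.5%, 44.6% and 24.3%. Transgenic SOX13hi and DP share an index sequence, and the part of this in any DP share was not tested.

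**Figure D3:**
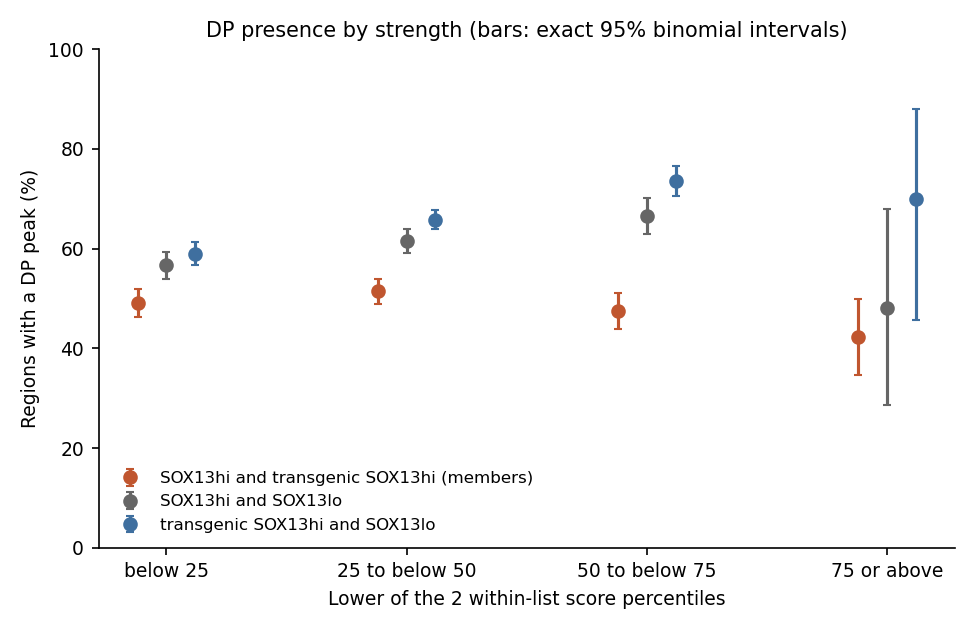
Share of regions with a DP peak (y axis, percent) by the lower of the 2 within-list score percentiles (x axis, 4 bands) for members and for regions of SOX13lo with either SOX13hi library; bars are exact 95% binomial intervals. In the band from 50 to below 75 members stood at 47.5% and the other pairs at 66.6% and 73.6%.

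Where DP had a peak at a member, it was of middling rank in the DP list. The median DP percentile was 68.0 (quartiles 51.7 and 80.4), against 92.2 for regions of all 5 libraries and 69.1 for mirror regions with DP. Of the 1857 members with DP, 690 (37.2%) were at or above percentile 75 in DP. Of the 73 strong members with DP, 46 (63.0%, 50.9 to 74.0) were.

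Absence of a listed SOX13lo peak from a member often went with a SOX13lo peak close by. A peak of either SOX13lo list lay within 200 bp of 1443 members (38.4%, 36.9 to 40.0), within 1 kb of 1977 (52.6%) and within 10 kb of 2796 (74.5%). Mirror regions had a peak of either SOX13hi list within 200 bp in 46.7%, within 1 kb in 65.1% and within 10 kb in 84.2%. The lists compared differ in length, so these shares are set side by side only. They were not computed for the other pairs or for all regions, so they are not shown to be particular to members. The median member lay 668 bp from the nearest SOX13lo-list peak. A further 959 members (25.5%) had none within 10 kb.

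Strong members lay farther from the SOX13lo peaks than weak ones in these lists. No SOX13lo-list peak lay within 10 kb of 82 of the 173 strong members (47.4%, 39.8 to 55.1), against 268 of the 1248 members below percentile 25 in 1 or both lists (21.5%, 19.2 to 23.9). A SOX13lo-list peak within 200 bp was found for 24.3% (18.1 to 31.4) of the strong and 42.3% (39.5 to 45.1) of the weak members. Distance to a peak was not used by the rule beyond the overlap itself. Of the strong members, 50 had no SOX13lo-list peak and no DP peak within 10 kb.

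**Figure D4:**
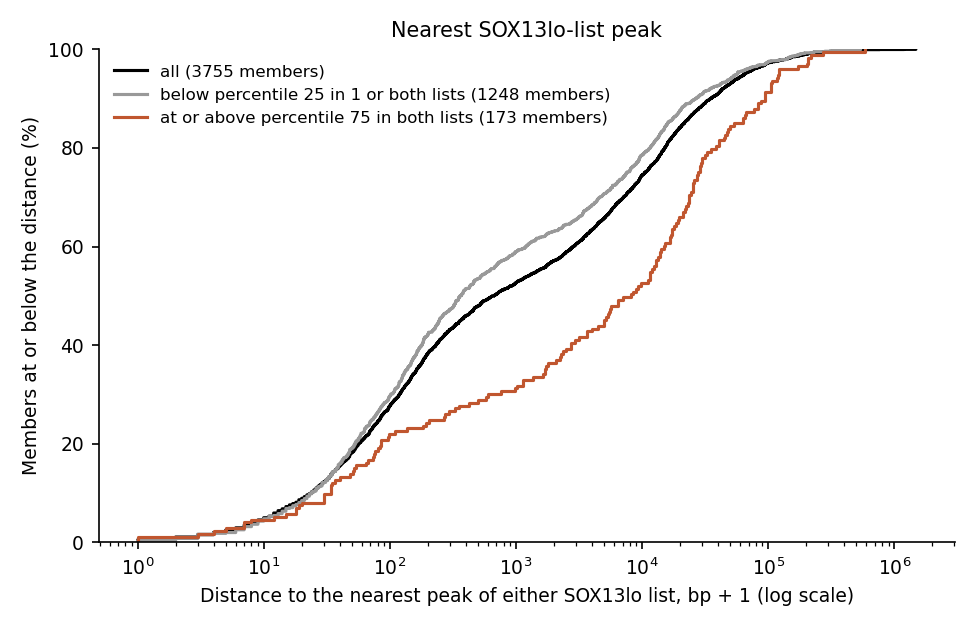
Cumulative share of members (y axis, percent) by distance to the nearest peak of either SOX13lo list (x axis, bp + 1, log scale), for all members, the 1248 below percentile 25 in 1 or both lists and the 173 at or above percentile 75 in both. The curve of the strong members lies below the others over most distances, and 47.4% of them lie beyond 10 kb.

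The 10 strongest members without DP, ranked by the lower of their 2 percentiles, were spread over 9 chromosomes. Scores are the authors' own and were ranked only within a list. The first was on chromosome 3 at 67239897 to 67240096 (mm9). It had a score of 108 in SOX13hi (percentile 95.4) and 144 in transgenic SOX13hi (97.7), and the nearest SOX13lo peak was 5541 bp away and the nearest transgenic SOX13lo peak 5814 bp. The second, on chromosome 7 at 121760309 to 121760517, scored 89 (percentile 93.9) and 101 (95.6). It had no peak of SOX13lo, transgenic SOX13lo or DP closer than 31977 bp. Both sites were therefore near the top of both SOX13hi lists, but only the second had no SOX13lo-list peak within 10 kb. The nearest DP peak to the first was 5296 bp away.

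The third strongest, on chromosome 14 at 24207416 to 24207581, scored 85 (percentile 93.4) and 99 (95.4), with the nearest SOX13lo-list peak 2219 bp away and the nearest DP peak 12897 bp away. The fourth, on chromosome 1 at 146778578 to 146778980, was a broad peak of 384 bp in both SOX13hi lists, with scores of 80 (92.8) and 75 (92.9). Its nearest SOX13lo peak was 120767 bp away, its nearest transgenic SOX13lo peak 155849 bp and its nearest DP peak 524603 bp, so the SOX13lo and DP lists held nothing in a wide stretch around it. The fifth, on chromosome 11 at 10446129 to 10446583, was 448 bp wide in SOX13hi and 382 bp in transgenic SOX13hi, with scores of 78 (92.6) and 74 (92.8). The nearest SOX13lo peak lay 29759 bp from it and the nearest DP peak 29951 bp.

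The other 5 of these 10 had percentiles of 90.04 to 93.1 in SOX13hi and 90.7 to 93.2 in transgenic SOX13hi. They lay on chromosome 15 at 31406203 to 31406481, chromosome 9 at 80143917 to 80144067, chromosome 13 at 14155261 to 14155565, chromosome 10 at 24310550 to 24310604 and chromosome 14 at 52462648 to 52462700. The sites on chromosomes 9, 13 and 10 had a SOX13lo peak 74, 39 and 29 bp away and were not members when a distance of 200 bp was required or when peaks within 150 bp were joined. The last one, on chromosome 14, was narrow (53 bp) and had no peak of the other 3 lists closer than 40402 bp.

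Of the 10 strongest members with DP, 8 were also at or above percentile 84.4 in the DP list. The first was on chromosome 5 at 104251095 to 104251200, with scores of 91 in SOX13hi (percentile 94.0), 126 in transgenic SOX13hi (97.0) and 186 in DP (95.2). A SOX13lo peak lay 79 bp from it, and joining peaks within 150 bp removed it. On chromosome 11 the second (90386574 to 90386973) and the sixth (90373938 to 90374305) lay 12268 bp apart. The second scored 77 (percentile 92.4), 84 (94.1) and 99 in DP (90.9). The sixth scored 92 (94.1), 58 (89.8) and 52 in DP (84.4). No SOX13lo-list peak lay closer than 94434 bp to either, so this was a pair of sites open in both SOX13hi libraries and in DP, with none listed in SOX13lo nearby.

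The third strongest with DP, on chromosome 14 at 105931394 to 105932104, was wide in DP (711 bp, score 336, percentile 98.1) and narrower in SOX13hi (111 bp for the wider of 2 peaks, percentile 90.7) and transgenic SOX13hi (31 bp, 95.3). Its nearest SOX13lo-list peak was 32646 bp away. The seventh, on chromosome 7 at 66010472 to 66010751, had the highest DP percentile of the 10, with a DP score of 712 (99.7) and percentiles of 89.6 and 92.6 in the SOX13hi lists. The eighth and the last, on chromosome 16 at 10836510 to 10836832 and chromosome 2 at 11127402 to 11127763, were at percentiles 97.6 and 85.8 in DP and had a SOX13lo-list peak 502 and 1139 bp away. The fifth, on chromosome 15 at 7414048 to 7414266, was at 87.9 in DP and 3651 bp from a SOX13lo peak. The fourth, on chromosome 8 at 106763631 to 106763843, was weaker in DP (percentile 54.4), with a SOX13lo peak 50 bp away. The ninth, on chromosome 18 at 7638637 to 7639065, had the lowest listed DP score, 5, and a SOX13lo peak 272 bp away.

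**Figure D5:**
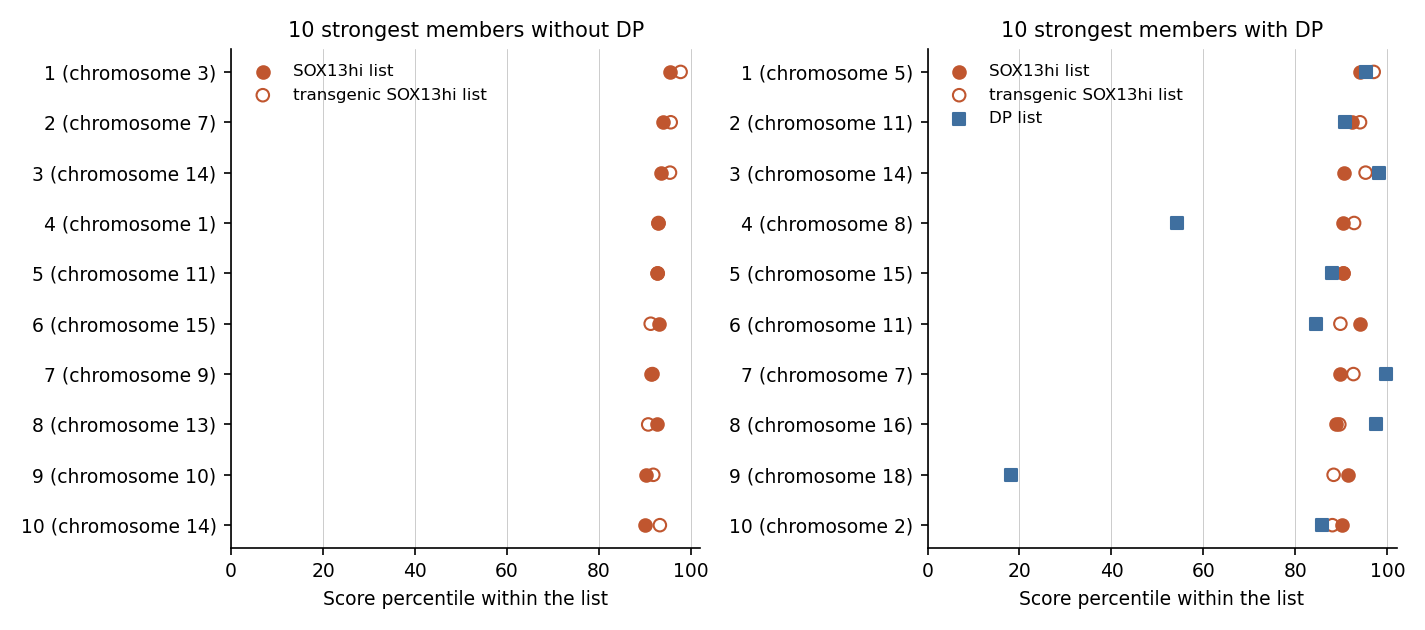
Within-list score percentile (x axis) of the 10 strongest members without DP (left) and with DP (right) in the SOX13hi list (filled circles), the transgenic SOX13hi list (open circles) and, where present, the DP list (squares), numbered by rank with their chromosome. The SOX13hi percentiles lie between 88.0 and 97.7, and the DP percentiles of ranks 4 and 9 on the right are far lower, at 54.4 and 18.1.

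Most windows with a member held a single one. In 100 kb windows, 2973 of the 13215 windows with a region held at least 1 member, 2347 of them exactly 1 and 135 of them 3 or more. Mirror regions, which were fewer, reached 3 or more in 6 windows. Of the 135 windows, 118 held no mirror region, and in 38 SOX13lo had more regions in all than SOX13hi. Mirror regions were rare in windows with members in general: 287 of the 2973 held one. The windows with 3 or more members were thus not freer of mirror regions than the rest. By chromosome, members were 11.0% (chromosome 19) to 14.9% (chromosome 14) of the regions of both SOX13hi libraries, with a median of 12.7%. The DP share of members varied more, from 40.6% (34.6 to 46.9) on chromosome 6 and 40.6% (34.1 to 47.5) on chromosome 3 to 60.1% (53.7 to 66.2) on chromosome 7.

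The window with the most members was on chromosome 14 at 24200001 to 24300000, with 6 members (exact Poisson interval 2.20 to 13.1) and none of them in DP. It includes the third strongest member without DP. Another member at 24205205 to 24205238 lay 8 bp from a transgenic SOX13lo peak. A pair at 24221228 and 24221287 lay 675 and 734 bp from the nearest SOX13lo-list peak, and a further pair at 24277805 and 24278155 lay 47 and 230 bp from a transgenic SOX13lo peak. The 5 members other than the strong one were at percentiles 18.3 to 50.6 in SOX13hi and 19.0 to 64.4 in transgenic SOX13hi. This window thus held 1 strong member with weaker ones around it. With lists of equal length, regions formed anew in the window gave 3 with the pattern of the members.

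The 4 further windows named for most members held 5 each (1.62 to 11.7): on chromosome 3 at 94100001, chromosome 8 at 14900001, chromosome 10 at 79600001 and chromosome 2 at 79000001. The windows on chromosomes 3, 8, 10 and 2 had 1, 3, 4 and 3 members with DP. All 5 members on chromosome 3 and 4 of 5 on chromosome 10 lay within 200 bp of a SOX13lo-list peak. When peaks within 150 bp were joined, the chromosome 3 window held 0 regions with the pattern of the members and the chromosome 10 window 1. In the window on chromosome 2, 1 of 5 members lay that close, and 4 were counted after joining. The strongest member of the chromosome 3 window, at 94181241 to 94181448, was at percentiles 78.6 and 86.9, with a transgenic SOX13lo peak 75 bp away and a DP peak.

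Among windows with most members without DP, 2 held tight groups away from any SOX13lo-list peak. On chromosome 9, 3 members lay within 536 bp at 70199424 to 70199959, with no SOX13lo-list peak closer than 41353 bp and no DP peak closer than 64453 bp. Their percentiles were 18.3, 62.8 and 50.6 in SOX13hi and 67.7, 42.8 and 19.0 in transgenic SOX13hi, so none was at or above percentile 75 in either list. On chromosome 8, 3 members lay within 1333 bp at 72224046 to 72225378, at least 14887 bp from SOX13lo-list peaks and 14720 bp from DP peaks. Their percentiles were 46.4, 18.3 and 53.7 in SOX13hi and 70.3, 47.9 and 78.8 in transgenic SOX13hi. With lists of equal length these windows held 0 and 2 members, and each held 2 when peaks within 150 bp were joined. On chromosome 11 at 32600001, 4 members without DP included 1 at 32631475 to 32631703, at percentiles 77.2 and 74.7 and 15790 bp from the nearest SOX13lo-list peak. Of the other 3, 1 lay 13 bp from a SOX13lo peak.

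Members lay less often near regions open in all 5 libraries than mirror regions did. Such a region was within 10 kb of 45.9% (44.3 to 47.5) of members and 57.4% (54.1 to 60.7) of mirror regions. The share was not computed for the other pairs or for all regions, and mirror regions all hold a peak of the shortest list. For members with DP the share was 49.1% (46.8 to 51.4) and for those without DP 42.8% (40.5 to 45.0). Members without DP often had a DP peak in the neighbourhood nonetheless, within 200 bp in 621 of 1898 (32.7%, 30.6 to 34.9) and within 10 kb in 67.3%. The DP list is the longest, and these shares were not computed for other regions. Successive members on a chromosome were a median of 231275 bp apart, and in 366 of 3736 successive pairs the gap was 10 kb or less.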

How the data were processed

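The authors deposited 1 peak list per library, without header, giving for each peak its position and a whole-number score; the sources used here do not say what the score counts, nor name the aligner, the peak caller or its threshold. Per the submitters' processing notes the build is mm9. The deposited score was used only to rank peaks within a list. Starts are printed counted from 1. Peaks overlapping by at least 1 bp were merged over all 5 lists, and a region takes its highest-scoring peak in each list. The members, lists and measures were chosen with earlier results of these data known. Named regions are the 10 members without and the 10 with DP with the highest lower percentile of the 2 SOX13hi lists, and the 5 windows of 100 kb with most members, in all and without DP. The gene and promoter tables at hand are of GRCm38, so genes, promoters, marker genes, motifs and sequences were not analysed here, and the labelled cell types were not checked against markers. Merging, classes and distances were tested on simulated lists. Alternatives were lists of equal length, the upper 50% by score, joining peaks within 150 bp, leaving out peaks of 30 bp or less, a margin of 200 bp, merging without DP, and all nuclear chromosomes. Leaving out either SOX13lo list, and the counts at or above percentile 75, were added after seeing the data. Python 3.11.15 was used with pandas 2.3.3, numpy 2.4.6 and scipy 1.17.1, and matplotlib 3.10.9 for plots.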

Additional observations from a re-analysis of the deposited data

How the results depend on the processing

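Members outnumbered mirror regions under each of the 7 planned settings, by 2.08 to 5.36 times (4.24 as reported). Mirror regions need a peak in the shortest list, transgenic SOX13lo. The lowest ratio, 2.08, was with lists of equal length, and the other settings left the lists unequal in length. Lists of equal length gave 2083 members, 753 of them with DP (36.1%), 22.9% with a SOX13lo-list peak within 200 bp, 302 strong members, and a DP share of 46.3% in mirror regions. The upper 50% of each list by score gave 1947 members, 1007 with DP (51.7%) and 940 without, 20.6% near a SOX13lo-list peak, 371 strong members, and 363 mirror regions (63.6% with DP). Joining peaks within 150 bp gave 1228 members without DP, a DP share of 55.2%, 2.95% near a SOX13lo-list peak, and 580 mirror regions (67.6% with DP). Leaving out peaks of 30 bp or less gave 1247 members without DP, a DP share of 51.5% (63.8% in mirror regions), 25.2% near a SOX13lo-list peak and 496 strong members. A margin of 200 bp gave 2312 members, 1216 with DP (52.6%) and 1096 without, and 472 mirror regions (63.8% with DP). Merging without DP gave DP shares of 54.3% in members and 62.4% in mirror regions, and 46.4% of members near a SOX13lo-list peak. Including the sex chromosomes left each of these shares within its interval and the counts close to those reported (3816 members, 903 mirror regions). The strong share was then 4.56% of members and 5.02% of regions of transgenic SOX13hi with transgenic SOX13lo, so the order turned for that pair. The rule without the SOX13lo list gave 12560 regions, 70.3% with DP. The mirror DP share lay above that of members under each planned setting. Of the 3755 members, 1106 overlapped a member with lists of equal length, 834 with the upper 50%, 1000 without short peaks and 2197 after joining, so which regions are members depends on the setting. Of the 20 named strong regions, 20 stayed with lists of equal length and 14 after joining. Cutting lists by score keeps such high-scoring peaks and adds no SOX13lo peak, so the count of 20 was largely fixed beforehand. Leaving out peaks of 30 bp or less kept 9 of the 10 without DP and 9 of the 10 with DP. Promoter, motif and gene-list alternatives were not run, as no mm9 genome was used here. No paired analysis was possible because each group has 1 library.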

Other observations

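Of the strong members without DP, some of those farthest from any SOX13lo-list or DP peak were looked up after their values were seen. A member on chromosome 16 at 60268482 to 60268531, 50 bp wide, was at percentile 89.4 in SOX13hi and 91.8 in transgenic SOX13hi, and no SOX13lo-list or DP peak lay closer than 585017 bp. A member on chromosome 6 at 93112759 to 93113016 was at percentiles 86.1 and 83.7, with the nearest SOX13lo-list peak 219485 bp and the nearest DP peak 921312 bp away. On chromosome 16 at 12903254 to 12903555 a member was at percentiles 84.2 and 78.8, with no such peak closer than 205637 bp. On chromosome 7 at 90510227 to 90510605, a member 379 bp wide was at percentiles 88.9 and 85.0, with no such peak closer than 202904 bp. On chromosome 1 at 165032507 to 165032811 a member was at percentiles 78.0 and 77.3, with no such peak closer than 222186 bp. Distance to other peaks of the SOX13hi lists was not measured. These sites are candidates for a closer look in the reads, since a peak list holds nothing below its threshold.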
